A study of Mus musculus with 6 samples.

Results

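The adenosine A1 receptor acts through inhibitory G proteins on adenylyl cyclase, and 10 genes of that step were followed in mouse aorta: 5 Gi/o alpha subunit genes (Gnai1, Gnai2, Gnai3, Gnao1 and Gnaz) and 5 adenylyl cyclase genes (Adcy3, Adcy4, Adcy5, Adcy6 and Adcy9). They were chosen by name, and each of the 10, out of 19752 genes with a probe set naming that gene alone, had exactly 1 such probe set. The groups were 3 DKO samples, from mice with both the adora1-/- and the apoe-/- genotype, and 3 ApoE-KO samples, from mice with apoe-/- alone. Both groups thus share the loss of Apoe, were on a C57BL/6 background and were 20 weeks old. Total RNA of the aorta was hybridised to 1 Affymetrix whole-transcript array per sample, giving log2 intensities for 25254 probe sets. The labels do not say whether a sample came from 1 mouse. The series text calls the comparison animals ADORA1 knockouts, whereas all labels on those samples give Apoe as the missing gene, and the groups here go by the labels.

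The A1 receptor, once bound by adenosine, makes a Gi or Go protein exchange GDP for GTP and split into an alpha subunit and a beta-gamma dimer. The alpha subunit of Gi lowers the activity of adenylyl cyclase, the membrane enzyme that makes cyclic AMP, and the dimer acts on ion channels, phospholipase C and phosphoinositide 3-kinase. In arteries, cyclic AMP relaxes smooth muscle through protein kinase A, so this step lies between adenosine and vessel tone. Because the samples are pieces of whole aorta, fewer cells of a type and less RNA per cell cannot be told apart.

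Adora1 is not analysed here, and the labels were not checked against it. Apoe read 9.39 to 9.72 in DKO and 9.47 to 10.04 in ApoE-KO on the log2 intensity scale, and with no wild-type array these levels do not check the Apoe deletion either. The smooth muscle myosin gene Myh11 read 13.32 to 13.61 in DKO and 13.23 to 13.55 in ApoE-KO, so a defining transcript of the labelled tissue was present on all 6 arrays. The replicate 3 arrays stood apart in lung transcripts: the surfactant gene Sftpc read 11.92 in DKO and 12.32 in ApoE-KO replicate 3, against 6.21 to 6.45 on the other arrays. Levels of different probe sets are not comparable with each other, so each gene is compared only with itself across arrays.

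Promoters are printed for 4 genes whose levels followed the replicate numbers: Gnai1, Gnai3 and Adcy5, which moved in one direction, and Adcy4, which moved in the other. The levels of Adcy3 followed the numbers too, but its promoters are not printed. The sequences are from RefSeq (build GRCm38.p6, 300 bases, from 250 before to 50 after the transcription start), where 7 of the 10 genes matched and gave 8 promoters. Capitals mark GC boxes (GGGCGG, the site of Sp1-type factors) and the core of the cyclic AMP response element (TGACG), on either strand.
Gnai1 promoter, chr5:18360364-18360663, minus strand: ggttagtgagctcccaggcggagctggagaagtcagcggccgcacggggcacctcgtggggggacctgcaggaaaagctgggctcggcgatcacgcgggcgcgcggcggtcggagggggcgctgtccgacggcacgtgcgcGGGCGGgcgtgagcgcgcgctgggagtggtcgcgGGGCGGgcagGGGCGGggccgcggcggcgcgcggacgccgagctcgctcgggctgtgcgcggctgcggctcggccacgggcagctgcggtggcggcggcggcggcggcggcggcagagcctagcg
Gnai3 promoter, chr3:108146103-108146402, minus strand: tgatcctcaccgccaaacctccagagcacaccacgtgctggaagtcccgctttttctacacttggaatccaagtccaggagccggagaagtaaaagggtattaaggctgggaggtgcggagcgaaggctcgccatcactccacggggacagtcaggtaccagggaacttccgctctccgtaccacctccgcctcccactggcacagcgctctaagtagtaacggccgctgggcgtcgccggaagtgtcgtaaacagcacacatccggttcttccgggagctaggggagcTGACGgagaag
Adcy5 promoter, chr16:35154614-35154913, plus strand: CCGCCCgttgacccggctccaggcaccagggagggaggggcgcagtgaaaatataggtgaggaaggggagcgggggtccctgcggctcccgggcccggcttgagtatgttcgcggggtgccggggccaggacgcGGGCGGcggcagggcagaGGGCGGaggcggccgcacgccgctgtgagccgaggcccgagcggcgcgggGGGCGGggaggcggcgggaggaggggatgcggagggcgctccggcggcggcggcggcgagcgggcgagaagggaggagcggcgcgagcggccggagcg
Adcy4 promoter, chr14:55784023-55784322, minus strand: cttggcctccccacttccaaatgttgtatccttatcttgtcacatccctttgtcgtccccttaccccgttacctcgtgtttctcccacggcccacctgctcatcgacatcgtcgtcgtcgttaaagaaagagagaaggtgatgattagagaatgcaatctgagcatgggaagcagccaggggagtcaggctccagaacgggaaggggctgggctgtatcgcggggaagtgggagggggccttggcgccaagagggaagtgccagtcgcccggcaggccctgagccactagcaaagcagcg
A GC box was found in 4 of the 8 promoters, among them those of Gnai1 and Adcy5, which hold 3 and 4, and in 35.7% of all 32851 promoters of that length. That core stood in 2 of the 8, those of Gnai3 and Adcy9, against 20.8% of all. The complete cyclic AMP response element TGACGTCA, which contains that core on both strands, the CArG box of smooth muscle genes and TATAAA were in none of the 8, against 1.8%, 1.6% and 13.6% of all. The Gnai1 and Adcy5 windows were 80.0% and 79.0% G and C, while that of Adcy4 was 58.0% and that of Gnai3 59.3%. All of these lay above the median of all promoters of that length, 52.7%. These matches describe letters in the windows and do not show binding.

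Of the 10 genes, none passed the test between genotypes, and their differences were small. The mean of DKO was above that of ApoE-KO for 9 of 10, at the most by 0.21 on the log2 scale (1.16-fold, Gnai3), and below it for Adcy4 alone (-0.015). Over all probe sets 49.3% had a mean difference above 0. The count was 6 of 10 without DKO replicate 1, 7 of 10 without ApoE-KO replicate 2, and 7 of 10 with the replicate number as a block and without the replicate 1 pair. It was 10 of 10 without both replicate 3 arrays, and 8 of 10 after renewed quantile normalization, where the Adcy5 mean turned to lower in DKO. The median difference of the 10 was 0.10, against -0.0024 over all probe sets.

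**Figure D1:**
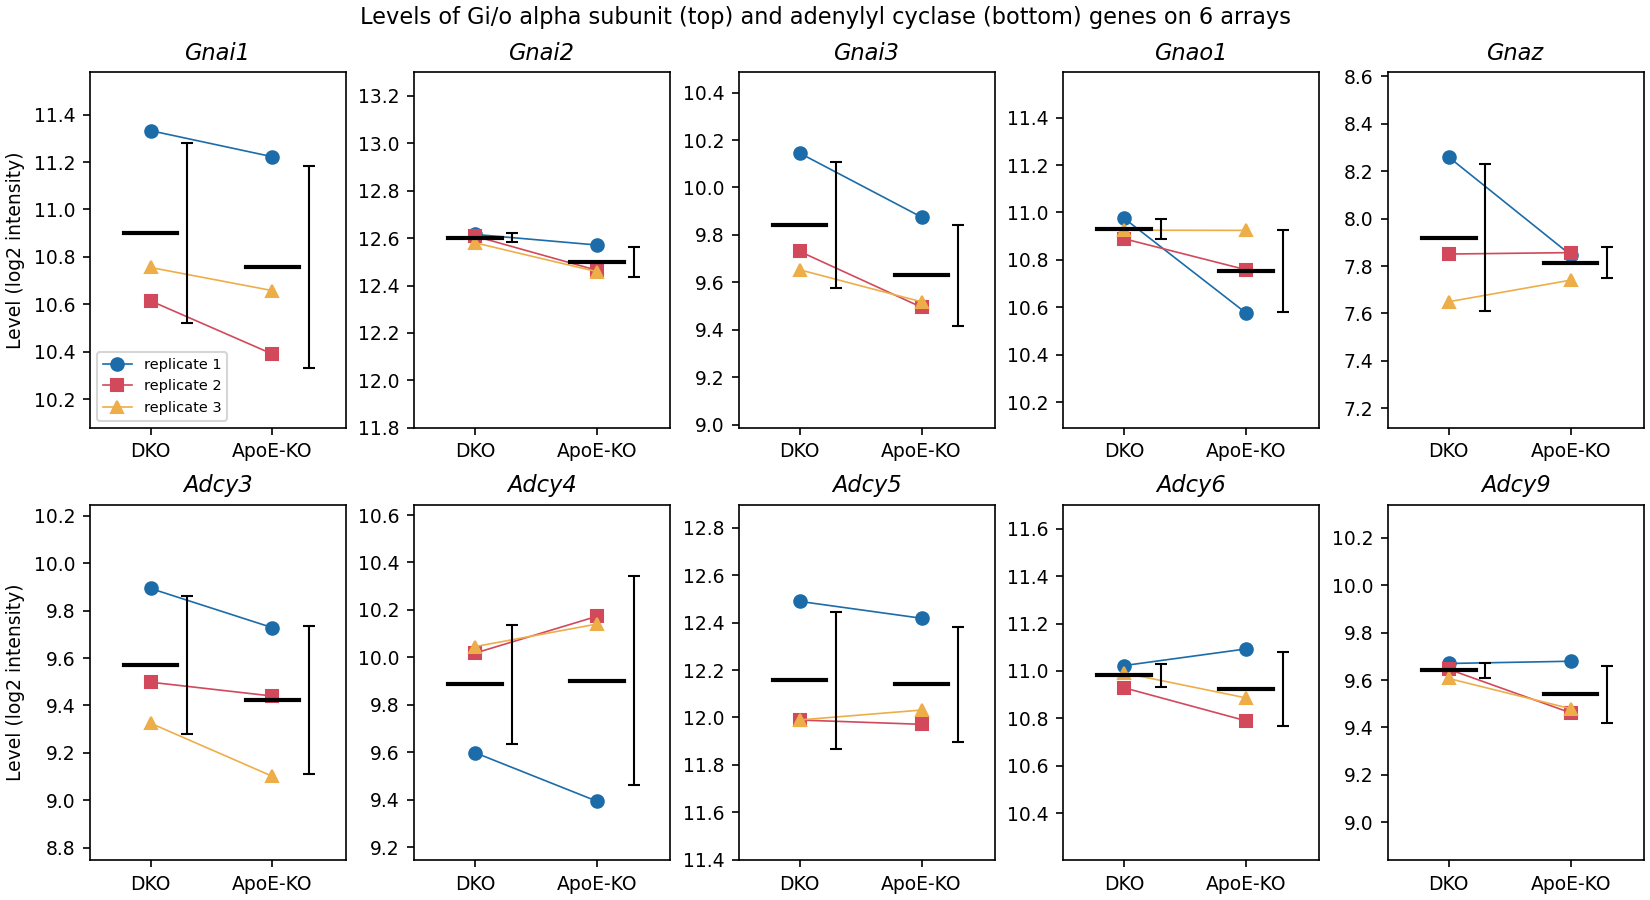
Level of each gene on the 6 arrays, in log2 intensity on the vertical axes, which all span 1.5 log2 units; points are arrays, lines join arrays of the same replicate number, thick bars are group means and thin bars the SD (n = 3). The circles of replicate 1 sit apart in Gnai1, Gnai3, Adcy3, Adcy4 and Adcy5, and the DKO and ApoE-KO groups are apart only in Gnai2, by a narrow margin.

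Gnai1, Gnai2 and Gnai3 encode the alpha subunits that inhibit adenylyl cyclase and that pertussis toxin uncouples from receptors. Gnai1 read 11.33, 10.61 and 10.76 in DKO replicates 1 to 3, against 11.22, 10.39 and 10.66 in ApoE-KO replicates 1 to 3. The groups overlapped, and the replicate 1 array was the highest of its group in both genotypes. The difference was 0.14, with a 95% interval of -0.46 to 0.75 (limma, adjusted p = 0.954).

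Gnai2, a widely expressed family member that is abundant in blood cells, read 12.62, 12.61 and 12.58 in DKO against 12.57, 12.46 and 12.46 in ApoE-KO. It was the only one of the 10 genes whose groups did not overlap, the lowest DKO array standing just above the highest ApoE-KO array. Over all probe sets, 5.55% were separated in that direction and 12% in either. Its difference was 0.10, with an interval of -0.047 to 0.25 (limma, adjusted p = 0.866), and the pairs of equal replicate number stood at 0.045, 0.14 and 0.12.

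Gnai3 had the widest difference of the 10 with all arrays in the fit. It read 10.14, 9.73 and 9.65 in DKO against 9.88, 9.49 and 9.52 in ApoE-KO, so each DKO array was above the ApoE-KO array of its number while the groups as a whole overlapped. The pairs stood at 0.27, 0.24 and 0.14, a mean of 0.21 ± 0.07 (SD over 3 pairs). Without the pairing the interval ran from -0.17 to 0.60 (limma, adjusted p = 0.891). The difference was 0.062 without DKO replicate 1, where that of Gnao1 was wider (0.15). It was 0.34 without ApoE-KO replicate 1, where that of Gnai1 was wider (0.38). With the replicate number as a block, the Gnai3 difference was 0.19, 0.20 and 0.25 without pairs 1, 2 and 3.

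Gnao1 encodes the Go alpha subunit, which is best known from neurons and endocrine cells, where it acts largely through its beta-gamma partner on ion channels. It read 10.97, 10.89 and 10.93 in DKO against 10.58, 10.76 and 10.92 in ApoE-KO. The DKO arrays lay close together and the ApoE-KO arrays were spread more widely. The groups overlapped, with ApoE-KO replicate 3 above DKO replicate 2 and level with DKO replicate 3. The pairs accordingly ran from 0.40 in pair 1 through 0.13 in pair 2 to 0.0008 in pair 3, with a mean of 0.18 (limma, adjusted p = 0.864). Markers of neurons differed among the same arrays. Their mean log2 level over 9 of 9 measured markers was 7.06 to 7.34 in DKO and 7.23 to 8.30 in ApoE-KO, the highest value being that of ApoE-KO replicate 3. The markers did not all go the same way: 7 were lower in DKO and 2 higher, namely Stmn2 (0.21) and Uchl1 (0.25). Their part in the Gnao1 levels was not tested. The Gnao1 difference was 0.26 without both replicate 3 arrays, 0.088 without ApoE-KO replicate 1, and 0.066 with the block and without the replicate 1 pair.

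Gnaz encodes Gz alpha, a pertussis toxin-insensitive member of the family found in neurons and platelets. It read 8.26, 7.85 and 7.65 in DKO against 7.85, 7.86 and 7.74 in ApoE-KO. One array, DKO replicate 1, was high and the other 5 lay between 7.65 and 7.86, so the difference of 0.11 (limma, adjusted p = 0.945) became -0.065 without that array. The 5 measured platelet markers averaged 9.43 to 9.90 in DKO and 9.25 to 9.60 in ApoE-KO, with the mean at 9.43 in DKO replicate 1, and their part in the Gnaz levels was not tested.

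Among the cyclases, Adcy3, a calcium-calmodulin-sensitive form known from olfactory neurons and fat, read 9.89, 9.50 and 9.32 in DKO against 9.73, 9.44 and 9.10 in ApoE-KO. Its pairs were all positive, at 0.17, 0.059 and 0.22, and the groups overlapped. The difference was 0.15, with an interval of -0.32 to 0.62 (limma, adjusted p = 0.939), and it was -0.011 without DKO replicate 1 and -0.0115 without ApoE-KO replicate 3. Adipocyte markers were lower in DKO in 5 of 6 measured members (mean log2 level 9.02 to 9.82 in DKO and 9.55 to 10.25 in ApoE-KO). Their part in the Adcy3 levels was not tested.

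Adcy4, a form that beta-gamma dimers stimulate, read 9.60, 10.02 and 10.05 in DKO against 9.39, 10.17 and 10.14 in ApoE-KO. The replicate 1 array was the lowest of its group in both genotypes, unlike in any other of the 10 genes. The pairs differed in sign, at 0.20, -0.16 and -0.095, and the difference of -0.015 (interval -0.56 to 0.53; limma, adjusted p = 0.995) was far within the spread between replicates.

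Adcy5 and Adcy6 are closely related cyclases of heart and vascular smooth muscle that the Gi alpha subunit inhibits directly. Adcy5 read 12.49, 11.99 and 11.99 in DKO against 12.42, 11.97 and 12.03 in ApoE-KO. Its pairs, at 0.071, 0.018 and -0.042, were the narrowest set around 0 of the 5 cyclases, while the replicate 1 arrays stood 0.50 in DKO and 0.42 in ApoE-KO above the mean of the other arrays of the group. Adcy6 read 11.02, 10.93 and 10.99 in DKO against 11.09, 10.79 and 10.89 in ApoE-KO, with overlapping groups. The Adcy5 difference was 0.016 (interval -0.39 to 0.43; limma, adjusted p = 0.995) and that of Adcy6 was 0.058 (interval -0.17 to 0.29; limma, adjusted p = 0.952).

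Adcy9, a broadly expressed cyclase that forskolin activates poorly, read 9.67, 9.65 and 9.61 in DKO against 9.68, 9.46 and 9.48 in ApoE-KO. ApoE-KO replicate 1 alone kept the groups from separating. The difference was 0.10, with an interval of -0.11 to 0.31 (limma, adjusted p = 0.909), and the pairs stood at -0.0096, 0.18 and 0.13.

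Same-numbered arrays of both genotypes moved together, so the comparison was also made with the replicate number as a block. Over all probe sets limma without the block called 0 of 25254 (0% called, 1419 or 5.62% at an unadjusted p under 0.05), and with the block 44 (0.174%), none of them one of the 10 genes. Without the block 0 of the 10 reached an unadjusted p under 0.05. In that blocked limma fit 3 of the 10 were higher in DKO at an unadjusted p under 0.05, namely Gnai3, Gnai1 and Adcy3 (0.00943, 0.0365 and 0.0485), while 16.2% of all probe sets met that mark in either direction and 10.1% as higher. Their adjusted p with the block (limma) was 0.176, 0.275 and 0.304, and the smallest of the other 7 genes was 0.342, for Gnai2. All 3 pairs were positive in 5 of 10 genes, namely Gnai1, Gnai2, Gnai3, Gnao1 and Adcy3, and in 21.2% of all probe sets, and all 3 were negative in 0 of 10, against 19.1% of all. Gnao1 belongs to that count only through a pair difference of 0.0008.

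**Figure D2:**
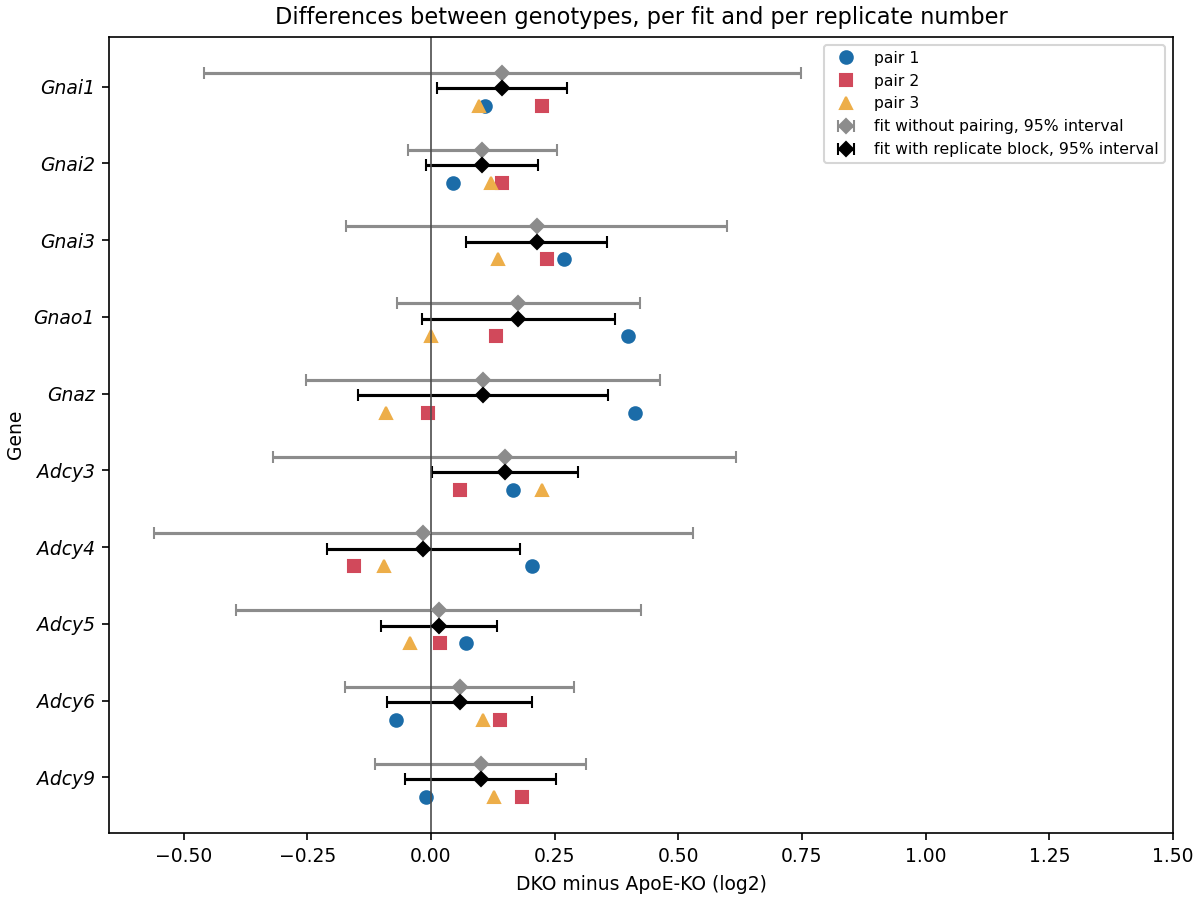
Difference of DKO minus ApoE-KO for each gene (horizontal axis, log2), as the limma estimate with its 95% interval without the block (grey) and with it (black), and as the single pairs of equal replicate number (coloured). The unblocked intervals all include 0, the blocked ones lie above 0 for Gnai1, Gnai3 and Adcy3 before adjustment, and the largest estimate is 0.21 (Gnai3).

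The width of the 95% intervals depended on the block. With the block, the highest upper bound was 0.37, for Gnao1, and the lowest lower bound was -0.21, for Adcy4. Without it, the highest upper bound was 0.75, for Gnai1, and the lowest lower bound was -0.56, for Adcy4. Differences beyond the blocked bounds are thus not excluded. For Adcy5 and Adcy6 the blocked intervals were -0.10 to 0.13 and -0.088 to 0.20. These are intervals of single genes, not adjusted for their number.

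The replicate number accounted for more of the spread than genotype in 8 of the 10 genes, as it did in 74.7% of all 19752 genes, where 3 numbers against 2 genotypes favour the number. In a sum of squares over the 6 arrays, its share was 98.7% for Adcy5, 94.7% for Gnai1, 92.7% for Adcy4, 89.9% for Adcy3 and 75.5% for Gnai3, and genotype took 0.1%, 4.6%, 0.1%, 8.4% and 22.8% of the same genes. Gnai2 and Gnao1 were the exceptions, with 64.8% and 42.1% for genotype against 24.3% and 20.9% for the number. What same-numbered arrays share is not given in the labels.

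In 7 of the 10 genes the replicate 1 arrays were the highest of their group in both genotypes, against 27.4% of all probe sets. These were Gnai1, Gnai2, Gnai3, Adcy3, Adcy5, Adcy6 and Adcy9. The excess over the mean of the other arrays of the group was largest for Gnai1, at 0.65 in DKO and 0.70 in ApoE-KO. For Adcy3 it was 0.48 in DKO and 0.46 in ApoE-KO, and for Gnai3 0.45 in DKO and 0.37 in ApoE-KO. In Adcy4 the replicate 1 arrays lay below the others by a log2 difference of -0.43 in DKO and -0.76 in ApoE-KO, and 19.6% of all probe sets were lowest there in both.

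Cell type markers differed along the same numbers. Of 7 smooth muscle markers 6 were highest in replicate 1 in both genotypes, and the mean excess was 0.17 in DKO and 0.20 in ApoE-KO. All 7 endothelial markers were lowest there in both, with a mean of -0.46 in DKO and -0.54 in ApoE-KO. So were 5 of 6 adipocyte markers, with -0.58 in DKO and -0.53 in ApoE-KO, and 5 of 6 cardiomyocyte markers, with -0.33 in DKO and -0.63 in ApoE-KO. Fibroblast and mesothelial markers were lowest there in 3 of 6 each, macrophage markers in 2 of 6 and lung markers in 1 of 6. The summed smooth muscle list, as its mean log2 level, ran from 12.50 to 12.68 in DKO and from 12.43 to 12.66 in ApoE-KO, and that of endothelium from 10.01 to 10.53 in DKO and from 9.97 to 10.60 in ApoE-KO. The part of these cell types in the levels of Gnai1, Adcy5 and Adcy4 was not tested. Between genotypes, with 5 of 7 markers higher in DKO in each list, the mean differences of both lists were small (0.042 for smooth muscle and -0.021 for endothelium, whose median was 0.067). Mesothelial markers were higher in DKO in 6 of 6. Their mean log2 level was 8.08 to 8.57 in DKO and 7.38 to 7.80 in ApoE-KO. The groups did not overlap in 5 of the 6, against 12% of all probe sets. With the block 2 of the 6 were called, as were 2 of the 6 adipocyte markers, against 0.174% of all probe sets. All lists were chosen with earlier results of these data known. The part of mesothelium in the levels of the 10 genes was not tested.

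**Figure D3:**
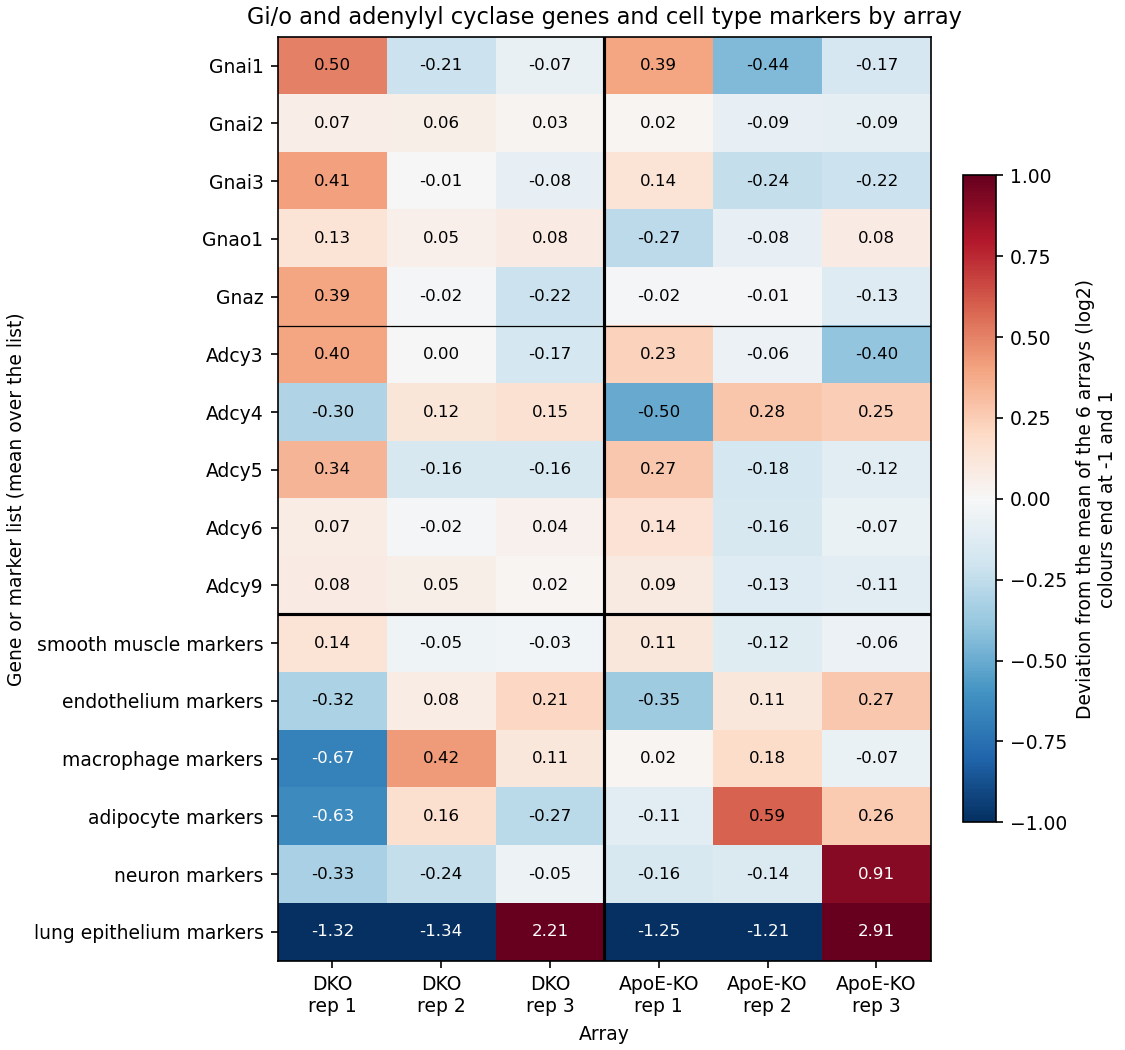
Deviation of each gene, and of the mean of each marker list, from its own mean over the 6 arrays (colour and printed value, log2), with DKO arrays left of ApoE-KO arrays. Gnai1, Gnai3, Adcy3 and Adcy5 are positive on both replicate 1 arrays together with the smooth muscle markers, Adcy4 and the endothelial markers are negative there, and the lung markers are positive only on the replicate 3 arrays.

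By the root mean square difference of mean-centred levels over the 6 arrays, among 17620 other genes, the closest to Gnai1 was Cd63, a tetraspanin of endosomes (0.037). Churc1, a zinc-finger protein gene (0.048), and Ndufa1, a subunit of respiratory complex I (0.056), came next. The closest to Adcy4 were Mamstr, a coactivator of MEF2 transcription factors (0.026), Gata2, a transcription factor of endothelial and blood cells (0.0495), and Slc9a8, a sodium-proton exchanger (0.056). Gnai1 and Adcy4 were taken as the alpha subunit and the cyclase with the widest spread (SD over 6 arrays 0.37 and 0.32). With only 6 arrays, this likeness describes the replicate pattern and carries no test.

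Of 79 further genes of the same signalling path, 72 were measured, and none was called by limma without the block or with it. The median difference of the 72 was -0.0052, with 33 higher and 39 lower in DKO. At an unadjusted p under 0.05 there were 7 without the block and 15 with it, 9 higher and 6 lower, where 5.62% and 16.2% of all probe sets met that mark. The groups did not overlap in 10 of the 72, against 12% of all probe sets. Adenosine receptors, 4 in the list, are not analysed here.

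Among 10 other alpha subunit genes, 5 were higher and 5 lower in DKO, with a median difference of -0.027. The smallest p belonged to Gnaq, the Gq subunit that drives vasoconstriction through phospholipase C, at 10.94, 11.02 and 10.93 in DKO against 10.73, 10.89 and 10.83 in ApoE-KO (difference 0.15; limma, adjusted p = 0.862). Its groups did not overlap. Gnal, the olfactory stimulatory subunit, followed with a difference of -0.32 and overlapping groups (limma, adjusted p = 0.862).

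Beta and gamma subunit genes had a median of -0.010, with 5 higher and 12 lower of 17. Gng11, a gamma subunit gene, read 7.87, 7.83 and 8.07 in DKO against 7.75, 7.70 and 7.26 in ApoE-KO (0.35), and Gnb3, the cone photoreceptor beta subunit, had a difference of -0.21 (limma, adjusted p = 0.861 and 0.862). In the Gng11 values, the distance between the groups came mostly from replicate 3, whose pair stood at 0.80 against 0.12 and 0.13. Gnb4, a beta subunit gene named after its values were seen, had the smallest blocked p of the 72 genes. It read 10.90, 10.48 and 10.61 in DKO against 10.48, 10.04 and 10.36 in ApoE-KO, with overlapping groups, pairs of 0.41, 0.44 and 0.25, and a difference of 0.37 (limma, adjusted p = 0.862, and 0.0789 with the block).

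Of the 5 other cyclases, Adcy7, a form known from blood cells and macrophages, read 10.78, 10.83 and 10.81 in DKO against 10.96, 11.26 and 11.08 in ApoE-KO. All DKO arrays lay below all ApoE-KO arrays. The difference was -0.30 (limma, unadjusted p = 0.0162, adjusted p = 0.861), the pairs stood at -0.19, -0.44 and -0.27, and with the block the adjusted p was 0.115. The mean log2 level of 6 macrophage markers was 8.96 to 10.06 in DKO and 9.57 to 9.81 in ApoE-KO, with pair differences of -0.70, 0.24 and 0.18, and their part in the Adcy7 levels was not tested. Adcy2, a neuronal form, had a difference of -0.058 (limma, adjusted p = 0.960), and the median of the 5 was -0.012.

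Regulators of Gi had a median of 0.0092, with 5 higher and 4 lower of 9. Gprin3, a G protein-regulated inducer of neurite outgrowth, and Pcp2, a GoLoco protein of Purkinje cells, had the smallest p, with differences of -0.18 and -0.12 (limma, adjusted p = 0.862 for both). Among 14 effectors, 5 were higher and 9 lower in DKO (median -0.046). Plcb1, a phospholipase C that G proteins activate, read 9.61, 9.44 and 9.37 in DKO against 9.20, 9.10 and 9.16 in ApoE-KO, with no overlap, pairs of 0.40, 0.34 and 0.21, and a difference of 0.32 (limma, adjusted p = 0.861 without the block and 0.102 with it). Cacna1b, the N-type calcium channel that beta-gamma dimers inhibit, read 6.93, 6.98 and 7.02 in DKO against 7.21, 7.17 and 7.37 in ApoE-KO (-0.28; limma, adjusted p = 0.861 and, with the block, 0.163). It lay lower in all DKO arrays, with pairs of -0.28, -0.19 and -0.36. Neuron markers were lower in DKO in 7 of 9, with mean pair differences of -0.17, -0.098 and -0.96, the widest in replicate 3. The part of neurons in the Cacna1b levels was not tested.

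Downstream of cyclic AMP, 11 of 17 measured genes of protein kinase A, Epac and CREB were higher in DKO (median 0.034). Crtc1, a CREB coactivator, had a difference of 0.22, and Prkar1a, a regulatory subunit of protein kinase A, one of 0.18 (limma, adjusted p = 0.862 for both, and 0.198 and 0.179 with the block). Prkacb, a catalytic subunit of the kinase, is named after its values were seen, because it was the only path gene called under any alternative. It read 11.61, 11.34 and 11.16 in DKO against 11.44, 10.87 and 10.75 in ApoE-KO, a difference of 0.35 with overlapping groups (limma, adjusted p = 0.862, and 0.101 with the block). It passed with the block only when the replicate 1 pair was left out (0.44; limma, adjusted p = 0.0243), a fit in which 415 probe sets passed.

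**Figure D4:**
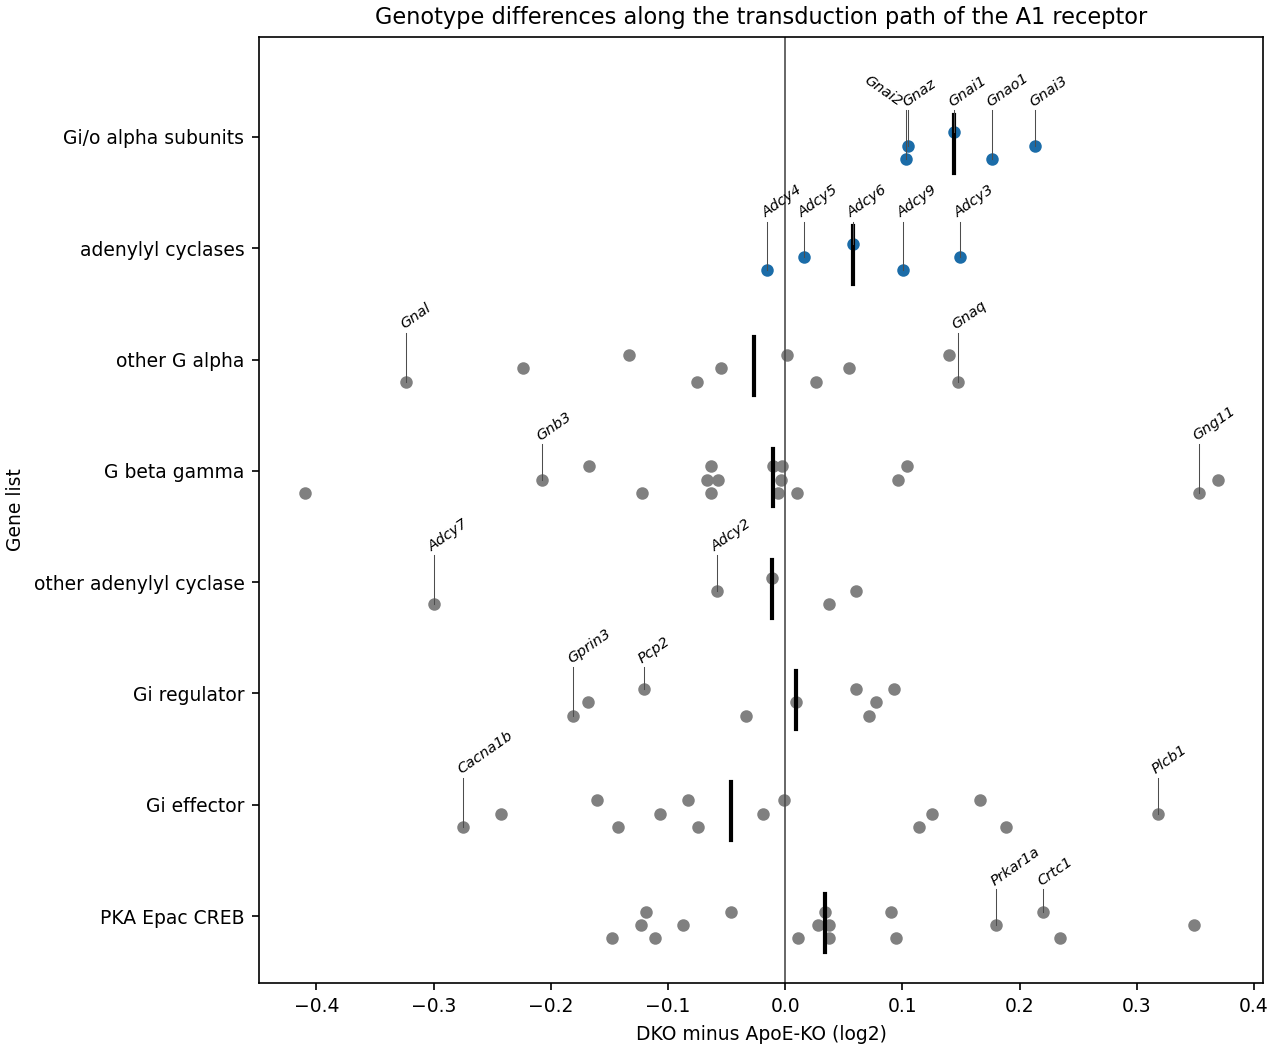
Difference of DKO minus ApoE-KO (horizontal axis, log2) for the 10 genes (blue, all labelled) and for 6 lists of further path genes (grey, the pair of smallest unadjusted p in each list labelled); points are genes, with small vertical offsets for legibility, and black bars are medians. The Gi/o alpha subunits lie between 0.10 and 0.21 and the cyclases between -0.015 and 0.15, inside the range of -0.41 to 0.37 that the grey genes span.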

How the data were processed

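The data are log2 intensities, deposited by the authors as 1 table of 25254 probe sets on 6 arrays; RMA and Partek and the build mm9 are named, without versions, per the submitters' processing notes. Removal of a batch effect is not stated there. Medians of the arrays lay between 8.01 and 8.02, and correlations between arrays between 0.983 and 0.995. Nothing in the labels says how samples of a group were obtained, so p-values measure only the spread between these samples.

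Genes were named with the platform's annotation, in which 21496 probe sets name 1 gene, 1565 several and 2193 none; per gene the probe set with the highest mean was kept. The 10 genes and all lists were chosen with earlier results of these data known. Every probe set went through limma 3.58.1 (R 4.3.3, eBayes with trend), DKO minus ApoE-KO, two-sided, with Benjamini-Hochberg adjustment over all probe sets at 0.05 and no filter. The code was first tested on simulated data with planted changes of 1 and 2 on the log2 scale. That test does not show what the fits detect at differences as small as those of the 10 genes. The series text describes an ANOVA with an array batch term, but no label names a batch. Deviations from the group mean correlated at 0.600, 0.498 and 0.636 between same-numbered arrays, so the numbers were treated as pairs although no label says what they share, and fits with the number as a block are given. Named are all 10 genes, per path list any gene called in either fit and otherwise the 2 of smallest unadjusted p, and the 3 nearest in pattern to the alpha subunit and cyclase of widest spread. Alternatives were the block, unmoderated models, eBayes without trend or robust, a filter at the 40th percentile, quantile normalization, median centring, array weights, probe set means, and arrays or pairs left out. With 3 against 3 arrays, their number limits the precision.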

Additional observations from a re-analysis of the deposited data

How the results depend on the processing

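None of the 10 genes passed under any of the 20 alternatives (limma or unmoderated linear models; smallest adjusted p = 0.176, Gnai3 with the block), and Gnai2, Gnai3, Gnao1 and Adcy9 kept their direction under all of them. Of 200 gene values, 181 kept direction and 19 turned. Adcy5 turned to -0.026 after quantile normalization and to -0.011 with array weights, and Adcy4 turned to 0.025 without both replicate 3 arrays. Leaving out 1 array gave -0.072 to 0.38 for Gnai1, 0.084 to 0.14 for Gnai2, 0.062 to 0.34 for Gnai3, 0.088 to 0.26 for Gnao1, -0.065 to 0.24 for Gnaz, -0.0115 to 0.30 for Adcy3, -0.27 to 0.13 for Adcy4, -0.15 to 0.15 for Adcy5, -0.0086 to 0.14 for Adcy6 and 0.061 to 0.17 for Adcy9; leaving out an array breaks a pair, so levels shared by a number enter those values. With the block and 1 pair left out, Gnaz was at -0.0485 and Adcy5 at -0.012 without pair 1, and Adcy4 at 0.055 and 0.025 without pairs 2 and 3.

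Over all probe sets 0 passed in the moderated fit of all arrays without the block and 44 with the replicate block. Without moderation 1 passed unblocked and 0 with the block, so none of the 44 passed there. Leaving out 1 array gave 0 to 8, the 8 without DKO replicate 3, and the block without 1 pair gave 415, 0 and 48 without pairs 1, 2 and 3. Of the 72 further path genes 0 passed, or 0 to 1 with the block without 1 pair. The cause of these changes was not tested. The replicate block changed no call among the 10 genes and the 72 path genes.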
